A study of Mus musculus with 6 samples.

Results

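Genes were sought whose signal in the mouse brain lacking both reelin receptors, Apoer2 and Vldlr, lay apart from each brain lacking only 1 of them. A gene qualified when its log2(signal + 28) on the double knockout array lay at least 0.5 above, or at least 0.5 below, both single knockout arrays. Of 11077 autosomal genes with enough signal, 84 (0.758%) lay above both single knockout arrays and 159 (1.44%) lay below both. The 243 genes therefore describe 3 of the 6 arrays of the series. The other 3 arrays lay outside this rule, but the signal filter and the choice of probe set used the mean over all 6. The distance from the double knockout to the nearer single knockout on this scale is called the margin below.

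Each array measured 1 frontal cortical lobe of 1 mouse aged 21 days, on a mixed C57BL/6 and 129 background, and all mice were labelled male and untreated. The genotypes were the double knockout (labelled APOER2-VLDLR KO), the Vldlr knockout (VLDLR KO) and the Apoer2 knockout (APOER2 KO), a Dab1 knockout (DAB1 KO), a Reln knockout (REELIN KO) and a wild type (WT). The double knockout, both single knockouts and the WT littermate came from crosses of mice heterozygous for both receptor genes, and the Dab1 and Reln knockouts came from crosses of their own. No genotype had a second array, so no value below carries an error or a p-value, and each difference compares these mice rather than these genotypes. The number of arrays limits the precision throughout.

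Reelin, encoded by Reln, is a secreted glycoprotein that guides the positioning of neurons in the developing cortex, hippocampus and cerebellum. It binds Vldlr and Apoer2, the product of Lrp8, and both receptors pass the signal to the intracellular adaptor Dab1. Mice lacking reelin, Dab1 or both receptors share the reeler phenotype with a small, poorly layered cerebellum, whereas loss of 1 receptor alone gives milder defects. The double, Dab1 and Reln knockout arrays are called the 3 reeler arrays below.

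Of the 12 genes that stood lowest in the double knockout by margin, 7 are known from cerebellar granule cells, and the gene that stood highest was Galc, a lysosomal enzyme that breaks down galactolipids of myelin. The promoter windows of 3 of the lower genes and of Galc are shown because these 3 have the greatest margins among the granule cell genes, Galc has the greatest among the higher genes, and members that differ together invite a look at shared letters. They are RefSeq sequences on build GRCm38.p6, from 250 bases before to 50 bases after an annotated start, on the minus strand of chr11:55312208-55312507 for Fat2, chr11:42321023-42321322 for Gabra6, chr14:55884207-55884506 for Cbln3 and chr12:98259410-98259709 for Galc. Capitals mark TTGGCA or its reverse complement TGCCAA, the core of sites bound by nuclear factor I proteins, which are known regulators of granule cell genes.
Fat2: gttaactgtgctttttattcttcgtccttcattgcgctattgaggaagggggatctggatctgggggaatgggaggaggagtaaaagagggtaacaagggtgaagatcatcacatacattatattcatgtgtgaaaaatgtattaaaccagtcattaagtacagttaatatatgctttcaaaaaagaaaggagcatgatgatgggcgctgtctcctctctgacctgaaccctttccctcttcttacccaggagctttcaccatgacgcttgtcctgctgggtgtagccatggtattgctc
Gabra6: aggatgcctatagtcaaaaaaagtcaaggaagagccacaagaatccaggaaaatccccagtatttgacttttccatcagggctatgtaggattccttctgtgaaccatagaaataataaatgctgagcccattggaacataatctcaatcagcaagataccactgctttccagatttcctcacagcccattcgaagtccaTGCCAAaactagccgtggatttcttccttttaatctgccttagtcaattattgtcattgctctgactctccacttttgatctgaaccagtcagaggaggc
Cbln3: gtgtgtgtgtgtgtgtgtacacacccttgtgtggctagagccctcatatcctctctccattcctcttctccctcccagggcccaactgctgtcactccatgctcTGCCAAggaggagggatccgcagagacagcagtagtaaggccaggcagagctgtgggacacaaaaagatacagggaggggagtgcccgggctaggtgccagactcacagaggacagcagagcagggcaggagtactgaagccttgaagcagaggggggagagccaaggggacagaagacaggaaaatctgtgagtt
Galc: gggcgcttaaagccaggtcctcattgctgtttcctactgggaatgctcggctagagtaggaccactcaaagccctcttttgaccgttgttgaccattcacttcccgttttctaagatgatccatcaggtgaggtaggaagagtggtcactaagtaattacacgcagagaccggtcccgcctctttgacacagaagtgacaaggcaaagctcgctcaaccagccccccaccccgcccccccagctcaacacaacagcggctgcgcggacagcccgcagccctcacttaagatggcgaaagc
The motif was searched on both strands. Of the 14 granule cell genes that lay below both single knockouts, 10 had a promoter window, and 4 of these held the motif, namely Gabra6, Cbln3, Chn2 and Cnpy1. Counted by window, 4 of the 14 windows of these genes held it, beside 14.1% of all 32851 promoter windows of the same length. The full nuclear factor I site, TTGGC and GCCAA with 5 bases between them, was in 0 of the 14 windows and in 0.0365% of all. The E-box CAGATG, or CATCTG on the other strand, occurred in 4 of the 14 windows, from 2 genes, and in 17.2% of all windows, and the palindrome CAGCTG in 2 of the 14, from 1 gene, and in 16.3% of all windows. The motifs were chosen after the genes had been seen, and a match describes letters in a window, not a bound site.

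Lrp8 read 13.7 on the double knockout array, against 379.8 on the Vldlr knockout and 4.2 on the Apoer2 knockout arrays, with 370.1 on the Dab1 knockout, 342.4 on the Reln knockout and 357.8 on the WT array. Vldlr read 185.6 on the double knockout array, against 187.3 on the Vldlr knockout and 491.7 on the Apoer2 knockout arrays, with 482.9 on the Dab1 knockout, 357.6 on the Reln knockout and 551.6 on the WT array. Each receptor gene was thus low on the double array and on its own single array and high elsewhere, so neither qualified at the probe set used. Of the other Vldlr probe sets above the filter, 2 lay below both single knockouts, with margins of −0.67 and −0.65. The first of these read 126.8 on the double knockout array, against 217.9 on the Vldlr knockout and 487.4 on the Apoer2 knockout array. The ligand and the adaptor stayed nearer the single knockouts: Reln read 1498.3 on the double knockout array, against 1880.0 on the Vldlr knockout and 1819.7 on the Apoer2 knockout array, and Dab1 read 516.4, against 626.0 and 573.1.

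None of the 38 measured genes on a list of the reelin pathway lay beyond both single knockouts, in either direction. Their median difference between the double knockout and the mean of the single knockouts was 0.04, beside 0.02 over all genes. The Src family kinase Fyn, which phosphorylates Dab1, read 1367.8 on the double knockout array, against 1374.7 on the Vldlr knockout and 1180.7 on the Apoer2 knockout arrays. Pafah1b1, the Lis1 subunit that couples the pathway to dynein, read 2525.4, against 2530.7 and 2365.6. The tau kinase gene Gsk3b had the highest difference from the mean of the single knockouts on this list, 0.36, with 1430.2 on the double knockout array, against 1224.3 and 1000.5. Of 16 measured genes of the LDL receptor family, 0 qualified and the median difference was 0.05.

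**Figure D1:**
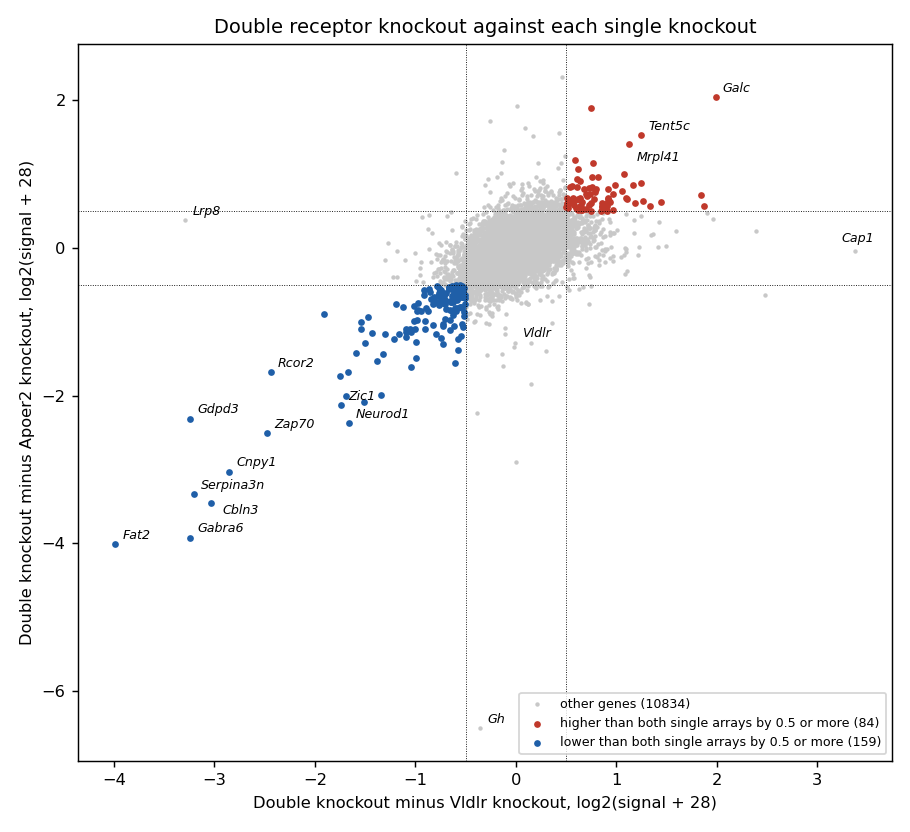
Each point is 1 of 11077 autosomal genes, with the difference between the double knockout and the Vldlr knockout array on the x axis and between the double knockout and the Apoer2 knockout array on the y axis, both in log2(signal + 28); dotted lines mark differences of 0.5 on either side of 0. The 84 genes above both single knockouts end at Galc in the upper right and the 159 genes below both end at Fat2 in the lower left, while Lrp8 and Vldlr lie off the diagonal and Gh lies far below it.

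Granule cell genes contributed more lower genes than any other of the 31 lists examined. Of 23 genes on a list of cerebellar granule cell genes, 20 passed the signal filter, and 14 of these 20 lay below both single knockouts, while 0 lay above both. The median difference between the double knockout and the mean of the single knockouts over the 20 genes was −0.92, beside 0.02 over all genes. Against WT, the median of the list was −1.20 in the double knockout, −0.24 in the Vldlr knockout, −0.06 in the Apoer2 knockout, −1.19 in the Dab1 knockout and −1.32 in the Reln knockout.

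Fat2, an atypical cadherin of granule cells, read 8.4 on the double knockout array, against 549.1 on the Vldlr knockout and 560.4 on the Apoer2 knockout arrays, with 36.4 on the Dab1 knockout, 93.3 on the Reln knockout and 642.5 on the WT array. The double knockout value lay below the highest bacterial control probe set of that array, 31.2, and so is a bound rather than a level. On the log2(signal + 28) scale, which limits differences at the dim end, Fat2 had a margin of −3.99. The 3 reeler arrays were low and the other 3 high, with no value in between.

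Gabra6, the GABA-A receptor alpha 6 subunit of granule cells, read 106.6 on the double knockout array, against 1247.6 on the Vldlr knockout and 2014.9 on the Apoer2 knockout arrays. The Dab1 knockout array read 185.7, the Reln knockout array 251.5 and the WT array 1797.0. The margin was −3.24 at this probe set and −2.32 at the other probe set of the gene. The Vldlr knockout lay 0.68 below the Apoer2 knockout, less than the distance from either to the double knockout.

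Cbln3 and Cbln1 encode secreted proteins of granule cells that organise synapses with Purkinje cells. Cbln3 read 114.5 on the double knockout array, against 1137.8 on the Vldlr knockout and 1532.0 on the Apoer2 knockout array, with 191.4 on the Dab1 knockout, 286.4 on the Reln knockout and 1593.4 on the WT array. Cbln1 read 598.2 on the double knockout array, against 1966.0 on the Vldlr knockout and 1978.2 on the Apoer2 knockout array, with 906.2 on the Dab1 knockout, 845.1 on the Reln knockout and 2379.5 on the WT array. Both genes were lowest in the double knockout, and all probe sets of each gene met the rule.

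The transcription factors of the group were also low on the 3 reeler arrays and high on the other 3. Neurod1, which drives granule neuron differentiation, read 382.1 on the double knockout array, against 1272.4 on the Vldlr knockout and 2098.0 on the Apoer2 knockout array, with 551.0 on the Dab1 knockout, 416.9 on the Reln knockout and 2044.7 on the WT array. Zic1, a zinc finger factor of granule neurons and their precursors, read 661.4, against 2275.6 and 2984.5, with 1068.4, 754.7 and 2495.0 on the Dab1 knockout, Reln knockout and WT arrays. En2, a homeobox factor of the midbrain and hindbrain, read 74.4, against 301.7 and 383.5, with 100 on the Dab1 knockout, 109.8 on the Reln knockout and 402.1 on the WT array. In each case the Apoer2 knockout lay above the Vldlr knockout, and the double knockout read below every other array.

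Cnpy1, whose zebrafish counterpart modulates FGF signalling at the boundary of midbrain and hindbrain, read 32.2 on the double knockout array, against 406.7 on the Vldlr knockout and 464.4 on the Apoer2 knockout array, with 73.7 on the Dab1 knockout, 96.8 on the Reln knockout and 522.0 on the WT array. Its 3 probe sets had margins of −2.85, −2.25 and −1.74.

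The remaining granule cell genes that qualified had smaller margins. Grin2c, an NMDA receptor subunit, read 302.7 on the double knockout array, against 631.7 on the Vldlr knockout and 769.5 on the Apoer2 knockout array. Grm4, a presynaptic metabotropic glutamate receptor of the parallel fibres, read 544.1, against 1022.8 and 1002.1. Gabrd, the delta subunit of extrasynaptic GABA-A receptors, read 551.6, against 852.7 and 887.3. The margins of these 3 genes were −0.996, −0.85 and −0.60, so they sit closer to the threshold than the genes above. Cadps2, a vesicle priming factor, Chn2, a GTPase-activating protein for Rac, and Kcnc1, a fast potassium channel, had margins of −0.90, −0.73 and −0.71. Gabrd and Kcnc1 no longer met the rule when all probe sets of the gene were averaged, with margins of −0.27 each.

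The 6 measured granule cell genes that did not qualify were Zic4, Zic5, Pax6, Calb2, Slc17a7 and Eomes. Slc17a7, the vesicular glutamate transporter that cortical neurons also express, read 3699.4 on the double knockout array, against 3449.2 on the Vldlr knockout and 3483.9 on the Apoer2 knockout array. Pax6 and Eomes were lower than the Apoer2 knockout by 1.09 and 1.43 but lay within 0.14 of the Vldlr knockout. These samples were labelled as frontal cortex, yet granule cell genes gave high signal on the WT and both single knockout arrays. The summed signal of the 22 granule genes on the array was 11149.4 in the double knockout, against 21400.4 in the Vldlr knockout and 25246.2 in the Apoer2 knockout, with 11428.2 in the Dab1 knockout, 12282.1 in the Reln knockout and 25303.7 in WT. In whole tissue, fewer granule cells and less RNA per cell cannot be told apart, and the part of the dissection in these sums was not tested.

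**Figure D2:**
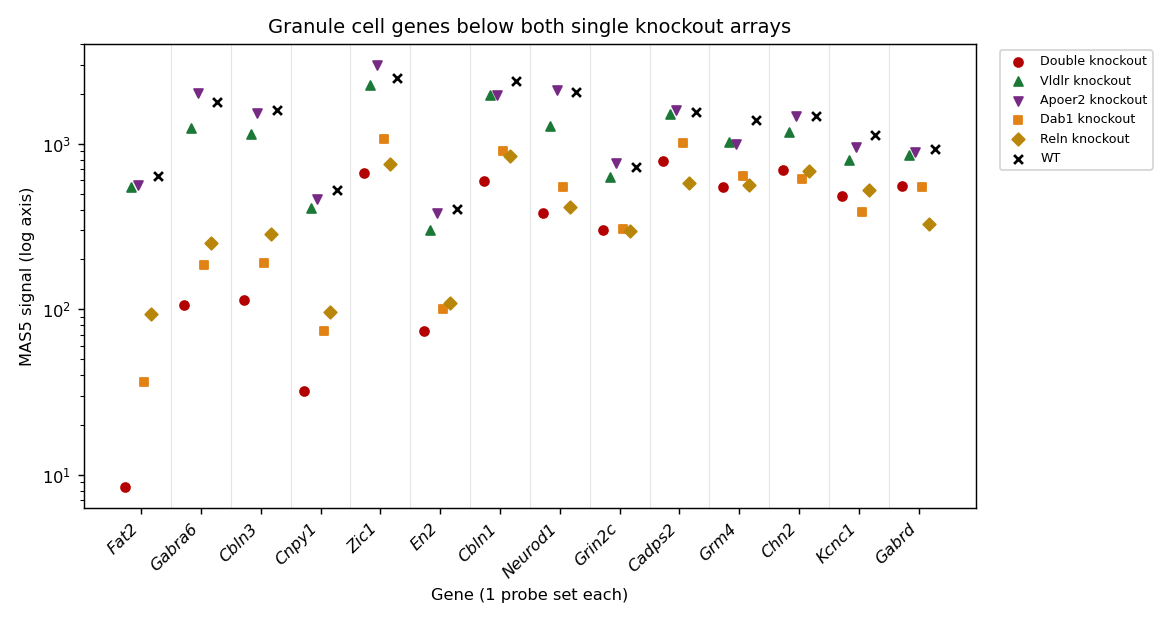
MAS5 signal (log axis) of the 14 granule cell genes below both single knockouts, ordered by margin, with 1 symbol per array and no error because each genotype has 1 array. For Fat2, Gabra6, Cbln3, Cnpy1, En2, Cbln1 and Neurod1 the double, Dab1 and Reln knockout arrays form a low group and the Vldlr knockout, Apoer2 knockout and WT arrays a high group.

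Purkinje cells share their tissue with granule cells. Of 13 measured Purkinje cell genes, 1 lay below both single knockouts, and the list median was −0.17. That gene, Car8, which encodes a protein related to carbonic anhydrases, read 1262.1 on the double knockout array, against 2238.2 on the Vldlr knockout and 2076.7 on the Apoer2 knockout array, and it missed the rule when its probe sets were averaged. Pcp2, a defining Purkinje cell gene, read 1828.5, against 2542.0 and 2683.3, with a margin of −0.47 just short of the threshold. A second Pcp2 probe set above the filter read 512.6, against 1332.3 and 1222.8, a margin of −1.21 that met the rule. The summed Purkinje signal was 20151.0 in the double knockout, against 22731.3 and 23081.2 in the Vldlr and Apoer2 knockouts. It was 23226.1 in the Dab1 knockout, 20253.2 in the Reln knockout and 21552.9 in WT, so the Dab1 knockout was not low.

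Cortical markers stayed near the single knockouts. Of 17 upper layer genes 1 lay below both (Nectin3, a cell adhesion molecule, with 194.9 on the double knockout array, against 357.0 and 290.7) and 0 above both, and the list median was 0.13. The Nectin3 call ended with a pseudocount of 89.4 (−0.42), under quantile normalization (−0.48) and with all probe sets averaged (−0.34). Of 22 deep layer genes 0 qualified, with a list median of −0.02. Of 22 interneuron genes 0 qualified either, with a median of 0.02.

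Among receptor lists, 3 of 19 glutamate receptor genes lay below both single knockouts, namely Grin2c, Grm4 and the kainate receptor subunit Grik2, and the list median was −0.23. Grik2 read 204.2 on the double knockout array, against 363.4 on the Vldlr knockout and 315.8 on the Apoer2 knockout array. Of 9 GABA-A receptor genes, 2 qualified, Gabra6 and Gabrd, both also on the granule cell list, and the median was −0.08. The alpha 4 subunit gene Gabra4 read 1190.8 on the double knockout array, against 1285.7 and 1179.0, and so lay within the range of the single knockouts.

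Serpina3n, a secreted protease inhibitor of reactive astrocytes, followed Fat2 and Gabra6 in margin among the lower genes and is on no neuronal list. It read 58.7 on the double knockout array, against 770.8 on the Vldlr knockout and 847.3 on the Apoer2 knockout arrays, with 302.1 on the Dab1 knockout, 187.1 on the Reln knockout and 807.9 on the WT array. The double knockout stood lowest, and the Dab1 and Reln knockouts lay between it and the rest. Vim, an intermediate filament of astrocytes and their precursors, was the other lower gene on the astrocyte list of 18, with 548.3 on the double knockout array, against 867.8 on the Vldlr knockout and 874.5 on the Apoer2 knockout array. Agt, on the same list, lay above both single knockouts, with 1261.2, against 652.0 and 783.9. The list median was 0.04, with 9 genes above and 9 below the mean of the single knockouts.

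Rcor2, a corepressor that works with the demethylase Lsd1, read 43.4 on the double knockout array, against 359.4 on the Vldlr knockout and 201.5 on the Apoer2 knockout array, with 40.7 on the Dab1 knockout, 40.6 on the Reln knockout and 250.9 on the WT array. The 3 reeler arrays lay between 40.6 and 43.4. Gdf10, a growth factor of the BMP family expressed in Bergmann glia, read 199.4, against 658.0 and 579.3, with 330.2, 199.1 and 541.7 on the Dab1 knockout, Reln knockout and WT arrays. Il16, a cytokine precursor with a neuronal form in cerebellum, read 87.9, against 211.2 and 326.4, with 86.6, 82.2 and 315.3. Gdf10 and Il16 were chosen after their values were seen.

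Of 14 measured genes on a list of meninges and fibroblasts, 3 lay below both single knockouts and 0 above both, with a list median of −0.25 and 11 of 14 genes below the mean of the single knockouts. Col1a1 and Col3a1, fibrillar collagens, read 76.5 and 121.5 on the double knockout array, against 123.6 and 296.7 on the Vldlr knockout and 185.1 and 231.1 on the Apoer2 knockout arrays. Igfbp2, a binding protein for insulin-like growth factors, read 502.4, against 743.1 and 731.5. Col6a1, a collagen of the same list, read higher with 632.3, against 499.5 and 450.7, a margin of 0.32. Col1a1 and Igfbp2 lost the call with a pseudocount of 89.4 and Col3a1 with the mean of its probe sets. The summed signal of the list was 11832.7 in the double knockout, against 11138.0 and 13107.5 in the Vldlr and Apoer2 knockouts. Ptgds, a prostaglandin synthase, alone gave 7043.0 of this in the double knockout, against 5794.1 and 6710.2.

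For some lower genes both single knockouts lay above WT while the double knockout lay below it. Zap70, a kinase of T cell receptor signalling, read 59.9 on the double knockout array, against 460.1 on the Vldlr knockout and 472.2 on the Apoer2 knockout array, with 421.0 on the Dab1 knockout, 136.1 on the Reln knockout and 179.4 on the WT array. This pattern belonged to 1 Zap70 probe set. The others, below the filter, read 71.5, against 69.1 and 72.7, and 34.9, against 31.0 and 41.9. Gdpd3, a lysophospholipase, read 24.5, against 467.7 and 232.7, with 43.4 on the Dab1 knockout, 12.4 on the Reln knockout and 55.0 on the WT array. Zfp1, a zinc finger gene, read 24.2, against 147.9 and 145.0, with 156.1 on the Dab1 knockout, 117.1 on the Reln knockout and 52.9 on the WT array. The log2 difference of the double knockout from WT was −1.24 for Zap70, −0.66 for Gdpd3 and −0.63 for Zfp1. The double knockout values of Gdpd3 and Zfp1 lay below the highest bacterial control of that array, 31.2, and so are bounds rather than levels. For Zap70 and Zfp1 the Dab1 knockout lay above WT as both single knockouts did, and for Zfp1 the Reln knockout did too.

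The higher genes had smaller margins. Only 4 of 84 reached a margin of 1 or more, against 31 of 159 lower genes, and the median margin was 0.61 for the higher and −0.64 for the lower genes. Dim genes were common among them, since 47.6% of the higher and 37.1% of the lower genes had a mean signal under 2 times the filter of 89.0, against 22.6% of all genes.

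Galc read 425.3 on the double knockout array, against 86.0 on the Vldlr knockout and 82.3 on the Apoer2 knockout arrays, with 377.0 on the Dab1 knockout, 404.6 on the Reln knockout and 62.3 on the WT array. The 3 reeler arrays lay between 377.0 and 425.3 and the others at or below 86.0. This pattern belonged to 1 probe set, chosen for its mean over all arrays, 239.6, which the high reeler arrays raised. On the Vldlr knockout, Apoer2 knockout and WT arrays this probe set read below the filter of 89.0. The agreement of the reeler arrays at Galc is therefore not independent of the choice of probe set. A second Galc probe set above the filter read 101.1 on the double knockout array. On the Vldlr knockout, Apoer2 knockout and WT arrays it read 125.1, 109.1 and 141.0, above the chosen probe set. The remaining, dim one read 39.7, against 49.7 and 27.1. Of the 20 measured genes of myelin and oligodendrocytes, Galc was the 1 that qualified, and the list median was 0.18.

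Tent5c, a noncanonical poly(A) polymerase, read 376.4 on the double knockout array, against 141.8 on the Vldlr knockout and 112.2 on the Apoer2 knockout array, with 77.8 on the Dab1 knockout, 24.2 on the Reln knockout and 50.8 on the WT array. The double knockout read highest, and both single knockouts also lay above WT, by log2 differences of 1.11 for Vldlr and 0.83 for Apoer2. Tent5c is also known for high expression in erythroid cells. The summed signal of 10 genes on the blood list, which also holds Rsad2 and Isg20, was 7205.9 in the double knockout. It was 5609.4 and 4416.0 in the Vldlr and Apoer2 knockouts and 4209.4 in WT. Tfrc alone gave 3464.7 of this sum in the double knockout, against 2528.4 and 1547.5 in the Vldlr and Apoer2 knockouts and 1438.3 in WT. Fech, another gene of the sum, read lower in the double knockout, with 944.8, against 978.3 and 1100.8. The part of blood in the Tent5c value was not tested.

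Mrpl41, a protein of the mitochondrial ribosome, read 2169.2 on the double knockout array, against 976.9 on the Vldlr knockout and 803.2 on the Apoer2 knockout array, with 912.3 on the Dab1 knockout, 1988.3 on the Reln knockout and 1390.4 on the WT array. A second probe set of the gene read 879.3 on the double knockout array, against 821.4 and 787.1, and did not meet the rule. On the list of mitochondrial respiration 0 of 20 genes qualified, although 20 of 20 lay above the mean of the single knockouts by 0.0032 to 0.34, with a median of 0.15, which quantile normalization lowered to 0.03.

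Agt, the precursor of angiotensins that astrocytes secrete, read 1261.2 on the double knockout array, against 652.0 on the Vldlr knockout and 783.9 on the Apoer2 knockout array, with 1154.1 on the Dab1 knockout, 1306.1 on the Reln knockout and 591.3 on the WT array. Rac3, a small GTPase of neurons, read 420.0, against 269.7 and 167.6, with 379.0 on the Dab1 knockout, 463.2 on the Reln knockout and 193.4 on the WT array. For both genes the 3 reeler arrays lay above the 3 others.

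Of 16 measured glucocorticoid target genes, 2 lay above both single knockouts and 0 below both, and the list median was 0.21. Plin4, a lipid droplet coat protein, read 186.3 on the double knockout array, against 85.3 on the Vldlr knockout and 105.6 on the Apoer2 knockout array, with 137.6 on the Dab1 knockout, 537.1 on the Reln knockout and 70.6 on the WT array. Angptl4, a secreted inhibitor of lipoprotein lipase, read 156.2, against 57.2 and 88.1, with 136.1 on the Dab1 knockout, 129.9 on the Reln knockout and 67.1 on the WT array. Sgk1, a kinase gene of the same list, read 2495.1, against 1089.6 and 2169.7, so that it stood apart from the Vldlr knockout by 1.17 and from the Apoer2 knockout by 0.20. Fkbp5, a cochaperone of the glucocorticoid receptor, read 870.8, against 489.3 and 668.9. Plin4 and Angptl4 had margins under 0.5 with a pseudocount of 89.4.

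Of 26 immediate early genes, 2 lay above and 1 below both single knockouts, with a list median of 0.12. Ccn1, a secreted matrix protein, read 160.5 on the double knockout array, against 61.0 on the Vldlr knockout and 65.8 on the Apoer2 knockout array, with 57.1 on the Dab1 knockout, 240.6 on the Reln knockout and 48.7 on the WT array. Btg2, an antiproliferative gene, read 505.5, against 227.6 and 285.1, with 330.8, 758.1 and 299.7 on the Dab1 knockout, Reln knockout and WT arrays. Nr4a3, an orphan nuclear receptor, read 281.4, against 490.1 and 694.7, and missed the rule when its probe sets were averaged (−0.23). The single knockouts differed on this list: Arc, which acts at active synapses, read 489.9 on the double knockout array, against 64.4 on the Vldlr knockout and 778.9 on the Apoer2 knockout arrays. Without the Vldlr knockout array, the list median was −0.09.

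**Figure D3:**
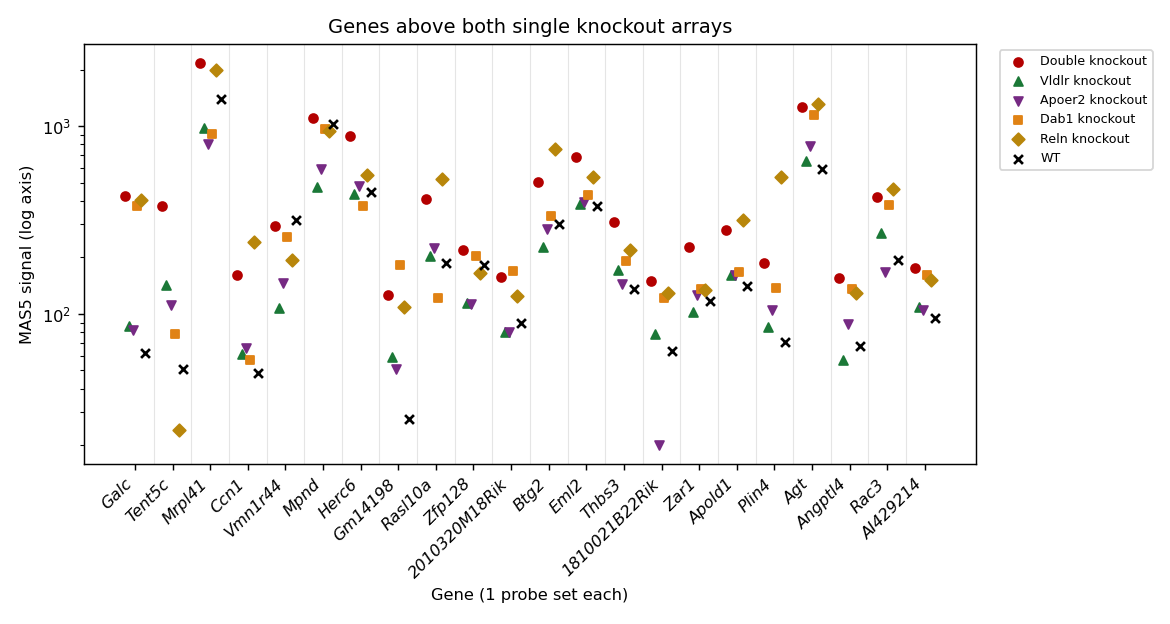
MAS5 signal (log axis) of the 22 named genes above both single knockouts, ordered by margin, with 1 symbol per array and no error because each genotype has 1 array. Galc, Agt and Rac3 are high on the double, Dab1 and Reln knockout arrays, Tent5c is highest on the double knockout array with both single knockouts above WT, and Mpnd, Vmn1r44 and Zfp128 are as high or nearly as high in WT.

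The WT array, which the rule did not use, separated the genes by whether the double knockout also lay away from WT. Of the 159 lower genes, 126 (1.14% of all genes) also lay at least 0.5 below WT, and in 102 of these both single knockouts lay within 0.5 of WT. Of the 84 higher genes, 41 (0.37% of all genes) also lay at least 0.5 above WT, and in 34 of these both single knockouts were within 0.5 of WT. The remaining 33 lower and 43 higher genes had a double knockout within 0.5 of WT. Mpnd, which encodes an MPN domain protein, was of this last kind, with 1102.0 on the double knockout array, against 473.9 on the Vldlr knockout and 595.2 on the Apoer2 knockout array, with 1033.2 on the WT array.

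The number of genes set apart was also counted for each other array in place of the double knockout, by the same rule against both single knockouts. The WT array gave 78 higher genes (0.704%) and 65 lower genes (0.587%), the Dab1 knockout 79 (0.713%) and 180 (1.62%), and the Reln knockout 367 (3.31%) and 409 (3.69%). The 84 higher genes of the double knockout are thus close in number to those of the WT array, which carries no mutation, whereas its 159 lower genes exceed the 65 of the WT array. The single knockouts differed from each other by at least 0.5 for 662 genes (5.98%). The margin exceeded the gap between the single knockouts in 78 of 84 higher and 153 of 159 lower genes, as the rule favours.

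The Dab1 and Reln knockout arrays against WT gave a comparison that shares no array with the margin. The signal filter and the choice of probe set, however, used the mean over all 6 arrays. A gene dim on the WT and single knockout arrays could thus enter through high reeler arrays. Gm14198 read 58.9, 50.6 and 27.6 on the Vldlr knockout, Apoer2 knockout and WT arrays and passed with a mean of 92.3. Likewise, a gene dim on the reeler arrays could enter through high WT and single knockout arrays. Rcor2 read 43.4, 40.7 and 40.6 on the double, Dab1 and Reln knockout arrays and passed with a mean of 156.1. The shares of higher and of lower genes below are therefore not independent of the selection. Of the 159 lower genes, 72 (45.3%) lay at least 0.5 below WT in the mean of the Dab1 and Reln knockouts, where 5.44% of all genes did, and 4 lay at least 0.5 above. Of the 84 higher genes, 16 (19.0%) lay at least 0.5 above WT in that mean, where 3.84% of all genes did, and 3 lay at least 0.5 below. With each of the 2 arrays past 0.5 on its own, 51 lower genes (32.1%, beside 2.64% of all genes) and 9 higher genes (10.7%, beside 1.53%) remained. Taken singly, the Dab1 knockout lay past 0.5 on the same side in 67 of 159 lower and 13 of 84 higher genes, beside 5.82% and 4.09% of all genes, and the Reln knockout in 74 and 22, beside 8.32% and 7.02%. The median difference of that mean from WT was −0.45 over the lower genes and 0.10 over the higher genes, beside −0.0037 over all genes. These shares rest on 1 Dab1 knockout, 1 Reln knockout and 1 WT mouse, and the WT mouse came from the receptor cross, so cross and genotype cannot be told apart in them.

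**Figure D4:**
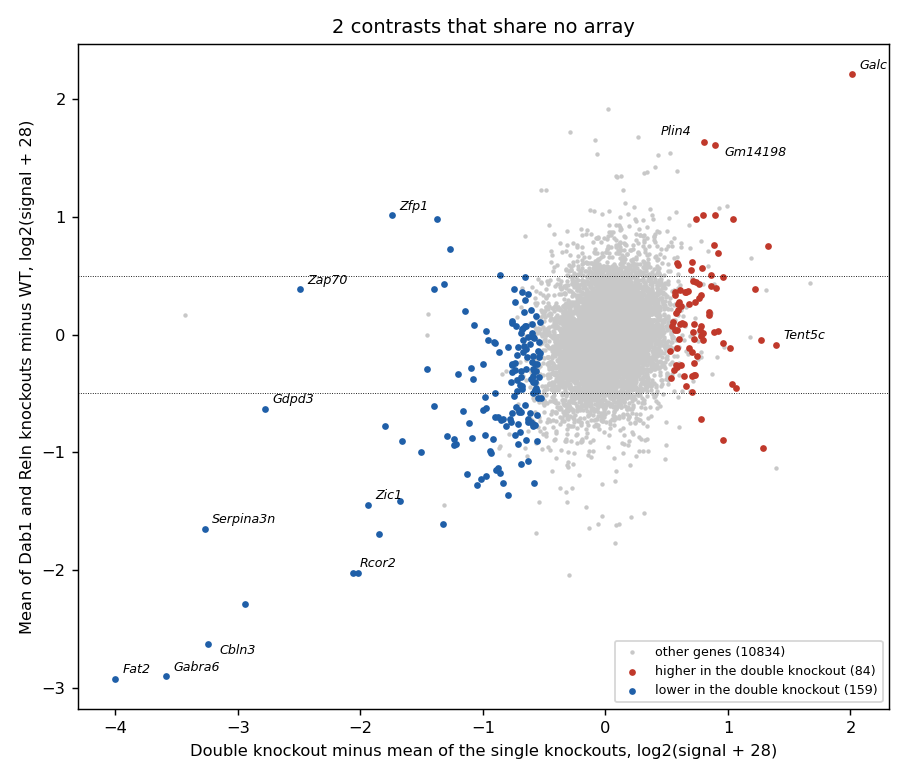
Each point is 1 of 11077 autosomal genes, with the double knockout minus the mean of the single knockouts on the x axis and the mean of the Dab1 and Reln knockouts minus WT on the y axis, both in log2(signal + 28); dotted lines mark 0.5 on either side of 0. Of the 159 lower genes 72 lie under the lower line and of the 84 higher genes 16 lie over the upper line, while Zap70, Zfp1 and Tent5c do not follow their side.

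Lower genes shared by the other reeler arrays included members outside the granule cell list. Mybpc3, a myosin binding protein, read 138.3 on the double knockout array, against 357.8 on the Vldlr knockout and 361.6 on the Apoer2 knockout array, with 163.6 on the Dab1 knockout, 222.4 on the Reln knockout and 388.8 on the WT array. Fgf14, an intracellular regulator of sodium channels whose human counterpart is mutated in a hereditary ataxia, read 679.3, against 1115.9 and 1231.6, with 719.7, 702.2 and 1141.7 on the Dab1 knockout, Reln knockout and WT arrays. St18, a zinc finger transcription factor, read 92.7, against 211.6 and 310.0, with 131.1, 129.2 and 275.9. For these 3 genes, chosen after their values were seen, the 3 reeler arrays read below the 3 others at the probe set shown. The other Fgf14 probe sets above the filter had margins of −0.58, −0.09 and 0.0.

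Other lower genes stood apart in the double knockout but not in the Dab1 knockout. Plcd4, a phospholipase C, read 50.7 on the double knockout array, against 177.5 on the Vldlr knockout and 199.9 on the Apoer2 knockout array, with 230.0 on the Dab1 knockout, 186.4 on the Reln knockout and 259.3 on the WT array. Cthrc1, a secreted collagen repeat protein, read 55.2, against 207.7 and 175.4, with 337.2, 265.5 and 222.8 on the Dab1 knockout, Reln knockout and WT arrays. Rgs5, a G protein regulator of pericytes, read 704.7, against 1536.9 and 1579.4, with 1585.9 on the Dab1 knockout, 886.2 on the Reln knockout and 2019.2 on the WT array. Plcd4 and Cthrc1 were low in the double knockout alone, and Rgs5 in the Reln knockout as well. These 3 genes were also chosen after their values were seen.

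**Figure D5:**
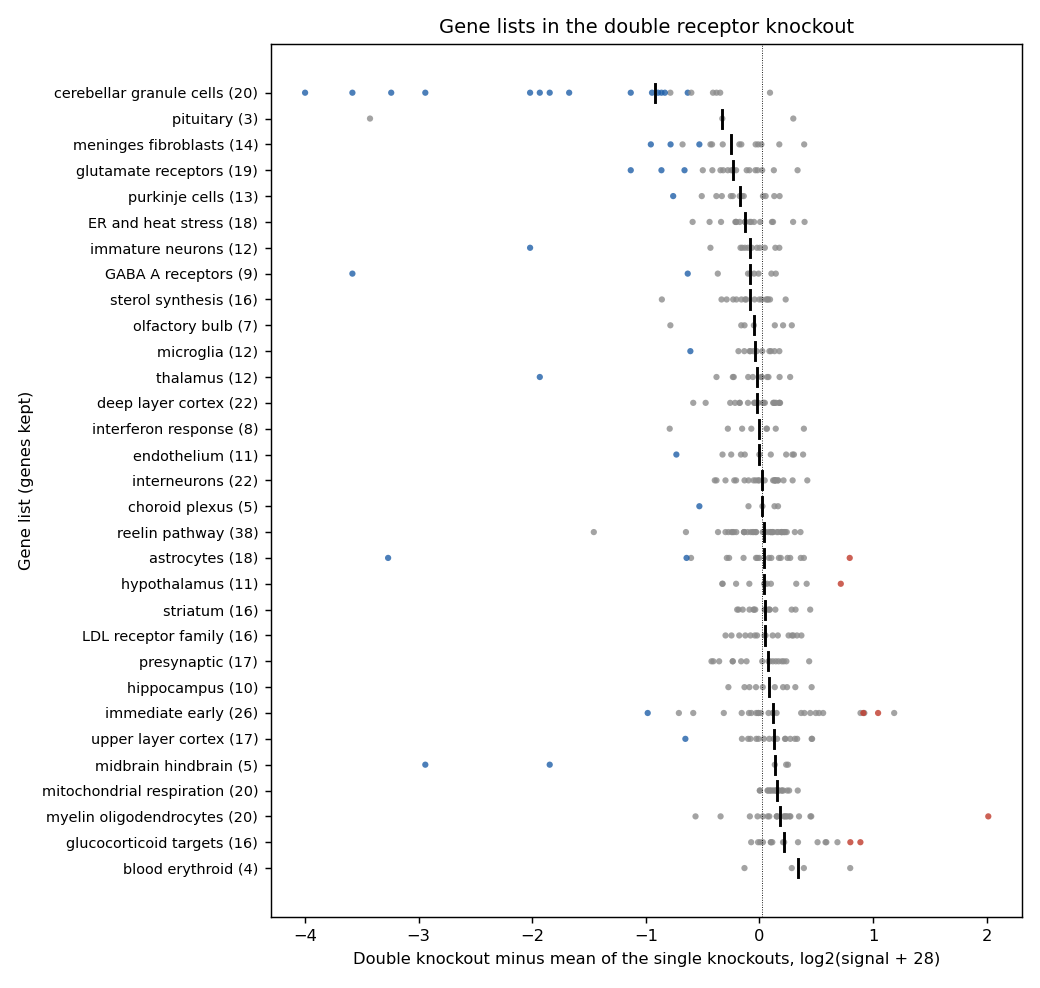
Double knockout minus the mean of the single knockouts, in log2(signal + 28), for each measured gene of 31 lists, with the number of measured genes in brackets; black bars are list medians, the dotted line is the median of all genes, and blue and red points lie below or above both single knockouts by 0.5 or more. The granule cell list reaches a median of −0.92, while the reelin pathway and cortical layer lists stay near 0.

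Several measurements bear on single genes. Where a gene had another probe set above the filter, all others lay on the same side in 45 of 58 lower and 17 of 20 higher genes, and another met the rule in 19 and 3. At the threshold, Dctn5 and Aqp11 had margins of 0.502 and 0.501 and Zfp932 and Smarcd2 of −0.504 and −0.503, while Foxred1 and A230006K03Rik, at 0.4995 and 0.4985, and Aqp4 and 4930413G21Rik, at −0.4988 and −0.4987, fell outside. In 7 lower genes the double knockout signal lay at or under the highest bacterial control of that array. The members spread over all 19 autosomes, with 0.472% of measured genes on chromosome 13 and 3.26% on chromosome 9, and 1.88% and 2.24% on chromosomes 4 and 19, which carry Lrp8 and Vldlr. Across all genes, Pearson's r of log2 signals was 0.975 between the double knockout and each single knockout and 0.978 between the single knockouts, given as a description over genes.

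The Apoer2 knockout array stood apart in 2 ways. Xist, expressed from an inactive X chromosome, read 4006.0 on the double knockout array, against 3820.0 on the Vldlr knockout and 124.9 on the Apoer2 knockout arrays, and 3367.6 or more on the other 3 arrays, although the labels call all mice male. Gh, a pituitary hormone gene, read 13.1 on the double knockout array, against 24.5 on the Vldlr knockout and 3704.8 on the Apoer2 knockout arrays. Every gene counted here differed from the Vldlr knockout array by 0.5 or more as well. Against the Vldlr knockout alone 391 genes lay higher and 343 lower, and the granule list median was −0.89.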

How the data were processed

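Total RNA of 1 frontal cortical lobe per mouse was hybridised to 6 arrays, 1 per genotype, per the labels' protocols. The authors deposited linear signal intensities. Per the submitters' processing notes, the tools were MAS5 and Affymetrix Expression Console, whose versions the sources used here do not give. The deposited intensities were scaled alike: with 2% trimmed from either end, array means ran from 249.4 to 249.5. The 27 bacterial control probe sets read at most 28.4 to 39.6 per array, and array medians were 86.5 to 92.3.

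Of 45101 probe sets, 34958 named 1 gene in the platform annotation, 932 named several and 9211 are unnamed here; 34754 matched RefSeq by gene ID, and 0 symbols changed. A gene was represented by its brightest probe set on average, with _x_at probe sets as a last resort. Of 18193 genes, 11499 averaged 89.0 or more (the median of all probe sets), and 11077 of these were autosomal. From the deposited intensities, log2(signal + 28) was computed, which understates differences of dim genes. A gene was counted when the double knockout lay at least 0.5 beyond both single knockouts on 1 side. The rule was tested on simulated data. Promoter windows are from RefSeq, build GRCm38.p6.

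Named genes are the targeted genes, the 12 greatest margins on each side, the 8 greatest with both single knockouts near WT, the 8 greatest shared by the Dab1 and Reln knockouts, genes at the threshold, the 2 highest and 2 lowest of each list described, the 3 highest and 3 lowest departures from additivity, and granule cell and reelin pathway genes that met the rule. The remaining genes with values were chosen after these were seen. The genes, lists and rules were chosen with earlier results of these data known. The lists cover the reelin pathway, LDL receptors, sterol synthesis, brain regions and cell classes, blood, pituitary, receptors, presynaptic genes and stress or hormone responses. Alternatives were a pseudocount of 1 or 89.4, no filter or one at 297.4, all probe sets averaged, quantile normalization, margins of 1.0 or 0.25, and leaving out arrays. Python 3.11.15, numpy 2.4.6, pandas 2.3.3 and matplotlib 3.10.9 were used.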

Additional observations from a re-analysis of the deposited data

Results flagged for a closer look

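For some genes the loss of a receptor moved the signal one way when the other receptor was present and the opposite way when it was absent, by at least 0.5 each time. The departure from additivity is the double knockout minus the sum of both single knockouts plus WT on the log2(signal + 28) scale. With 1 array per genotype it was not tested. It gives how far the effect of losing 1 receptor depended on the other, whether or not the direction reversed. It was positive for Vmn1r44 (2.23), Mpnd (1.94), Mrpl41 (1.90), 1810021B22Rik (1.68), Zfp128 (1.37) and the glycine transporter gene Slc6a5 (2.61), which read 295.5 on the double knockout array, against 61.9 on the Vldlr knockout and 167.8 on the Apoer2 knockout array, with 305.1 on the WT array. It was negative for Gdpd3 (−4.89), Zap70 (−3.74), Zfp1 (−2.85), Nr4a3 (−1.45), the endothelial adhesion gene Esam (−1.24) and 4930413G21Rik (−1.23). The double knockout signals of Gdpd3 and Zfp1 lay below the highest bacterial control of that array, so their departures rest on a bound. In 5 of the positive genes, all but 1810021B22Rik, the single knockouts read below WT, and in the negative genes they read above WT.

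The Apoer2 knockout array carried signal that the other 5 arrays lacked. The Y-linked gene Eif2s3y read 367.5 there, against 0.6 to 7.7 on the others, and the pituitary hormone gene Gh read 3704.8, against 13.1 to 32.4.

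Outside the autosomes, 4 genes met the same rule. Alas2, the X-linked first enzyme of heme synthesis in erythroid cells, read 848.1 on the double knockout array, against 406.1 on the Vldlr knockout and 247.9 on the Apoer2 knockout array, with 157.3 on the WT array, a margin of 1.01. Uba1y, annotated to the Y chromosome, read 253.5, against 140.9 and 127.5, with 130.9 on the WT array, a margin of 0.74. The Y-linked gene Eif2s3y read 7.7 on the double knockout array and 367.5 on the Apoer2 knockout array, where Uba1y read lowest. The Uba1y reading thus did not follow Eif2s3y, and what its probe set measured was not tested.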

How the results depend on the processing

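No paired analysis was possible because each genotype has 1 array and the groups share fewer than 2 replicate numbers. Counts are given in the order higher, lower, higher beyond WT, lower beyond WT, higher and lower shared by the mean of the Dab1 and Reln knockouts (84, 159, 41, 126, 16 and 72 as reported). They were 143 higher, 70 higher beyond WT and 32 shared higher with a pseudocount of 1; 35, 80, 20, 64, 7 and 42 with a pseudocount of 89.4; 23, 60, 13, 47, 5 and 34 with a filter at 297.4; 4, 31, 3, 25, 1 and 12 with a margin of 1.0; and 670, 689, 434, 511, 205 and 314 with a margin of 0.25. Without a filter they were 435, 382, 235 and 275 for the first 4 and 68 for shared higher genes. Averaging all probe sets gave 27 higher genes beyond WT. Leaving out 1 array gave 291 to 391, 343 to 401, 108 to 108, 176 to 241, 13 to 48 and 67 to 143; without the Vldlr knockout 291 were higher, 401 lower, 241 lower beyond WT and 143 lower shared, and without the Apoer2 knockout 391 and 343 were higher and lower. The granule list median was −1.18 without the Vldlr knockout and −0.89 without the Apoer2 knockout. Higher genes shared with the reported set were 82 of 84 and lower ones 146 of 159 under quantile normalization, and 48 of 84 and 99 of 159 with all probe sets averaged; averaging ended the calls of Mrpl41, Ccn1, Herc6, Zfp128 and Angptl4 among others. No named gene that met the rule turned direction. List medians changed sign for immediate early (−0.09) and choroid plexus genes (−0.22) without the Vldlr knockout, pituitary genes (0.36) without the Apoer2 knockout, olfactory bulb genes (0.21) with the filter at 297.4, and other lists whose reported medians lay within 0.1 of 0. Of the values of named genes 170 moved and 760 did not, and of the list medians 10 moved and 229 did not. The cause was not tested. Signals near the bacterial controls limit what dim genes show.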

Other observations

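Several lists in which no gene, or 1 gene, lay beyond both single knockouts still give values for the double knockout. Of 16 striatal genes 0 qualified and the list median was 0.05, of 17 presynaptic genes 0 with a median of 0.08, and of 10 hippocampal genes 0 with a median of 0.08. Of 16 genes of sterol synthesis 0 qualified, with a median of −0.08, and of 18 genes of endoplasmic reticulum and heat stress 0, with a median of −0.12. Among 12 microglial genes, Fcrls, a receptor-like gene of microglia, lay below both, with 76.7 on the double knockout array, against 137.4 on the Vldlr knockout and 126.0 on the Apoer2 knockout array. Among 11 hypothalamic genes, the peptide gene Gal lay above both, with 172.8, against 103.7 and 85.4. Among 11 endothelial genes, Esam read 255.6, against 435.7 and 450.1. Aqp4, the water channel of astrocyte endfeet, read 846.5 on the double knockout array, against 1398.4 on the Vldlr knockout and 1207.7 on the Apoer2 knockout array, with 1346.5 on the Dab1 knockout, 924.1 on the Reln knockout and 1871.1 on the WT array.

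Further choroid plexus, thalamus, immature neuron, midbrain and hindbrain, olfactory bulb, interferon, pituitary and blood lists had 1, 1, 1, 2, 0, 0, 0 and 0 genes below both single knockouts and 0 above both; the thalamus, immature neuron, and midbrain and hindbrain genes were Zic1, Neurod1, Cnpy1 and En2, which the granule cell list also holds. The 3 most positive departures from additivity were those of Slc6a5 (2.61), Ap4m1 (2.67), a subunit of an adaptor complex, and Cap1 (2.64), an actin regulator. Cap1 read 1621.2 on the double knockout array, against 130.1 on the Vldlr knockout and 1668.8 on the Apoer2 knockout arrays and 983.6 on the WT array. Gh had the most negative one (−6.62), through the Apoer2 knockout array alone.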
